A study of Mus musculus with 238 samples.

Results

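The hypothalamus was compared between old male mice that received Young Mouse Plasma (YMP) and old male mice that received phosphate-buffered saline (PBS). The members were the 6 hypothalamus libraries of the plasma experiment, 3 labelled YMP and 3 labelled PBS, out of 238 libraries in the series. All 6 mice were C57BL/6JN males aged 19 months, and both plasma and PBS were injected retro-orbitally. The YMP mice carried the numbers 73, 77 and 81 and the PBS mice 72, 80 and 84, so each library came from a different animal. The dose and the number of injections were not given in the labels used here. RNA was isolated from homogenized tissue, copied to cDNA by Smart-Seq2 and sequenced without strand information. A second experiment on female mice of the same strain and age, fed ad libitum (AL) or under dietary restriction (aDR), served here only as a source of reference levels for brain regions.

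The hypothalamus is the ventral part of the forebrain that controls feeding, water balance, body temperature, daily rhythm and the pituitary gland. It is made of many small nuclei, each with its own peptide-producing neurons, such as the orexin neurons of the lateral area, the vasopressin and oxytocin neurons of the paraventricular and supraoptic nuclei and the proopiomelanocortin neurons of the arcuate nucleus. It borders the thalamus above, the basal forebrain in front and the third ventricle in the middle, and parts of it lie close to vessels that let blood-borne signals reach neurons.

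The libraries held 6.45 to 8.19 M counts, except PBS 72 with 23.8 M. The mitochondrial share was 1.65% to 2.0%. PBS 72 stood apart from the others: it correlated with them at 0.956 to 0.971 (log2 levels across genes), against 0.971 to 0.986 among the remaining 5 libraries, and lay alone at one end of the first principal component, which held 44.0% of the variance. The group results are therefore given with and without it. Levels are CPM, a gene's counts relative to the library total as scaled by edgeR's TMM factors, changes are log2 YMP minus PBS, and the error of a change is its standard error (SE) with n = 3 mice per group.

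Several peptide and marker genes differed widely between mice of one treatment. Hcrt (chromosome 11, 100761069 to 100762931, GRCm38), which encodes orexin and marks neurons of the lateral hypothalamus, measured 521, 503 and 281 CPM in YMP 73, 77 and 81, and 0.172, 115 and 323 CPM in PBS 72, 80 and 84. Pmch, the melanin-concentrating hormone gene of the same area, measured 1197, 1184 and 816 CPM in the YMP libraries and 1.55, 738 and 1176 CPM in the PBS libraries. Both genes were therefore nearly missing from PBS 72, and in the other 5 libraries the treatments overlapped for both. Before TMM scaling, Hcrt ranged from 59.9 to 975 CPM in the 8 hypothalamus libraries of the female mice on either diet, against 0.168 CPM, from 4 counts, in PBS 72. The count given to Parpbp, 1.81 CPM in PBS 72 and 354 to 673 CPM elsewhere, cannot be separated from Pmch, since the genes overlap on opposite strands and the reads carry no strand.

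Several other defining genes were low or missing in PBS 72. Nkx2-4, a hypothalamic transcription factor gene, and Tmem212, a gene of ciliated ependymal cells that line the ventricle, had 0 counts there, which allows up to 0.126 CPM for counting error alone. Tmem212 measured 10.8 to 24.0 CPM in the other 5 libraries. Nkx2-4 was also low in YMP 77, at 0.667 CPM. It measured 17.7 and 25.5 CPM in YMP 73 and 81, and 17.6 and 5.99 CPM in PBS 80 and 84. Lhx8, a transcription factor gene of basal forebrain neurons, showed the opposite: 75.5 CPM in PBS 72, 1.80 and 1.69 CPM in PBS 80 and 84, 2.53 CPM in YMP 77 and 0 counts in YMP 73 and 81. Its fitted change of -4.92 rested on PBS 72.

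The neurosecretory genes split the YMP mice. Avp, the vasopressin gene, measured 1.70, 407 and 5.18 CPM in YMP 73, 77 and 81, and 124, 591 and 325 CPM in PBS 72, 80 and 84. Oxt, the oxytocin gene, measured 5.25, 676 and 17.3 CPM in the YMP libraries and 173, 520 and 538 CPM in the PBS libraries. YMP 73 and 81 were thus low in both hormones while YMP 77 was within or above the range of the PBS libraries. The fitted changes were -1.32 (SE 1.46) for Avp and -0.81 (SE 1.36) for Oxt, smaller than their standard errors, and edgeR's quasi-likelihood test gave both an adjusted p of 0.998. In the female mice, Avp ranged from 0.627 to 953 CPM and Oxt from 0.209 to 1132 CPM before TMM scaling, so a spread of this size was also present between hypothalamus libraries that had received neither plasma nor PBS.

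The arcuate feeding peptides overlapped between treatments. Pomc, the precursor of the appetite-reducing melanocortin peptides, measured 22.5, 2.27 and 105 CPM in YMP 73, 77 and 81, and 2.58, 254 and 85.1 CPM in PBS 72, 80 and 84. The hunger-promoting peptide genes Agrp and Npy were likewise low in YMP 77 and PBS 72. Agrp measured 2.78, 1.07 and 20.3 CPM in the YMP libraries and 1.21, 20.4 and 9.07 CPM in the PBS libraries. Of 9 arcuate peptide genes tested 2 had higher and 7 lower mean levels in YMP, 0 had an unadjusted p under 0.05, and the changes ran from -1.38 (SE 1.40, Pomc) to 0.42 (SE 0.51, Cartpt).

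**Figure D1:**
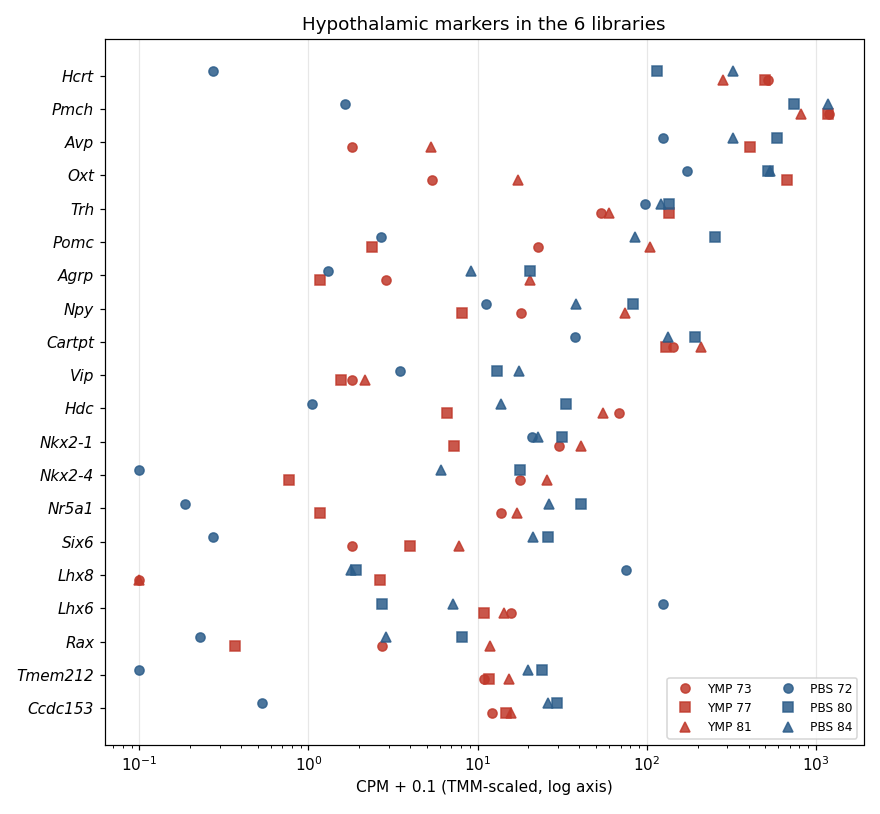
Levels of 20 hypothalamic peptide, transcription factor and ependymal genes in each library, as TMM-scaled CPM plus 0.1 on a log axis, with YMP in red and PBS in blue and 1 symbol per mouse; the genes were chosen after their values were seen. PBS 72 lies apart for Hcrt, Pmch, Lhx8 and Tmem212, and YMP 73 and 81 lie apart for Avp and Oxt. For Nkx2-4 both PBS 72 and YMP 77 are low.

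Across all 13776 genes that passed the filter on low counts, 0 had an adjusted p under 0.05 in edgeR's quasi-likelihood test (0% called), and the smallest adjusted p was 0.390. At an unadjusted p under 0.05 there were 600 genes (4.36%), of which 354 were higher in YMP (2.57%) and 246 lower (1.79%). The 3 YMP libraries lay entirely above the 3 PBS libraries for 661 genes (4.80%) and entirely below for 665 genes (4.83%). The median change was -0.01 and the median SE 0.14, while 115 genes had a change of at least 1 in size. DESeq2, run on the same counts, called 33 genes (0.174%), 30 higher and 3 lower in YMP, of which 11 were thalamus-enriched as defined further on. Leaving out PBS 72 raised the number at an unadjusted p under 0.05 from 600 to 1237 (8.88%) and gave 1 called gene (0.00718%), Vip, whereas leaving out YMP 73 lowered it to 312 (2.22%). The p-values measure the spread between these mice, and with 3 against 3 an exact two-sided permutation test of any single value cannot go below 0.10.

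The genes with the smallest p-values that were higher in YMP were Nxph1, Medag, Lef1, Kcna4, Cpne9, Foxp2, Ret, Rgs4, Phactr2 and Syndig1l. Nxph1 (chromosome 6, 8948431 to 9249032), which encodes a secreted ligand of neurexins at synapses, measured 137, 130 and 127 CPM in YMP 73, 77 and 81, and 78.8, 82.7 and 86.1 CPM in PBS 72, 80 and 84. The YMP libraries lay well above the PBS libraries, with a change of 0.67 (SE 0.08) and an edgeR adjusted p of 0.390. Lef1, a transcription factor of Wnt signalling, measured 29.3, 35.1 and 20.1 CPM in the YMP libraries and 9.56, 11.5 and 10.3 CPM in the PBS libraries, a change of 1.44 (SE 0.21; adjusted p 0.547). Cpne9, which encodes a calcium-dependent phospholipid-binding protein, measured 60.0, 56.1 and 39.8 CPM against 16.9, 10.2 and 20.9 CPM.

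The other genes of this set also showed no overlap, as the rule that named them required. Foxp2, a forkhead transcription factor gene, measured 51.2, 47.1 and 39.7 CPM in the YMP libraries and 28.1, 28.5 and 27.8 CPM in the PBS libraries. Rgs4, a regulator of G protein signalling, measured 307, 378 and 276 CPM against 188, 193 and 202 CPM. Ret, the receptor of GDNF-family growth factors, measured 36.9, 27.9 and 30.7 CPM against 19.0, 14.9 and 16.0 CPM, a change of 0.92 (SE 0.15). Kcna4, a voltage-gated potassium channel gene, differed by 0.66 (SE 0.10) and Phactr2, a regulator of protein phosphatase and actin, by 0.42 (SE 0.07).

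The genes with the smallest p-values that were lower in YMP were Cadps2, Lancl3, Rab3b, Slitrk5, Lgals3bp, Pde2a, Penk, Vip, Kcnh1 and Lgals8. Cadps2 (chromosome 6, 23262773 to 23839421), which encodes a protein needed for the release of dense-core vesicles, measured 48.6, 75.9 and 57.6 CPM in YMP 73, 77 and 81, and 132, 108 and 116 CPM in PBS 72, 80 and 84. Its change was -0.96 (SE 0.16) with an edgeR adjusted p of 0.604. Rab3b, a small GTPase of synaptic and secretory vesicles, measured 94.3, 112 and 112 CPM against 154, 137 and 144 CPM. All 3 YMP libraries were below all 3 PBS libraries for both genes.

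Vip, the peptide of light-receiving neurons in the suprachiasmatic nucleus, had the largest fitted change of the 10, -2.64 (SE 0.61). It measured 1.70, 1.47 and 2.07 CPM in the YMP libraries and 3.36, 12.95 and 17.4 CPM in the PBS libraries. Without PBS 72 the change was -3.10 and the edgeR adjusted p was 0.0374. In the female mice Vip ranged from 1.28 to 107 CPM with a median of 3.42 CPM before TMM scaling, a range that holds all 6 values. In the AL mice Vip was highest in visual cortex, and hypothalamus ranked 12 of 15 brain regions. Of 5 suprachiasmatic genes tested 3 were lower, Vip included, while Rgs16 and Grp were higher, by 0.76 and 0.53. Whether the Vip values came from the suprachiasmatic nucleus was not tested. Penk, the enkephalin precursor gene, measured 152, 139 and 150 CPM in the YMP libraries and 222, 189 and 181 CPM in the PBS libraries, a change of -0.43 (SE 0.10). Pde2a, a phosphodiesterase that breaks down cyclic nucleotides, differed by -0.57 (SE 0.13).

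**Figure D2:**
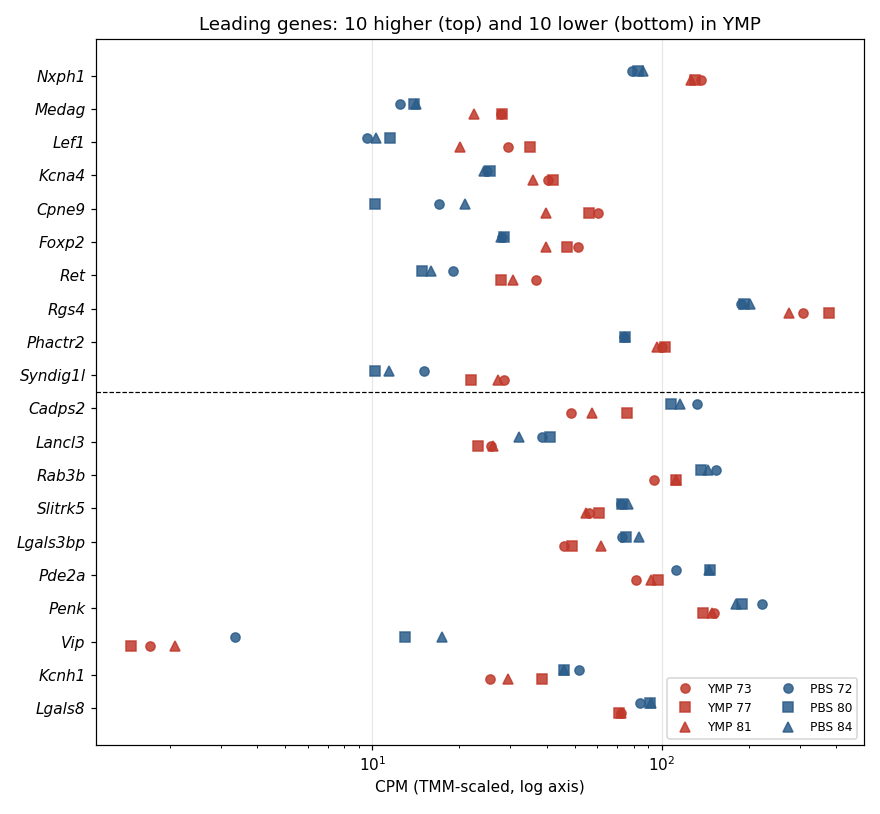
Levels of the 10 genes with the smallest p-values in each direction, as TMM-scaled CPM on a log axis, with YMP in red and PBS in blue and 1 symbol per mouse. The rule that chose these genes required that the YMP and PBS libraries do not overlap, so the gap between the colours is a description.

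Genes of the thalamus were higher in the YMP libraries. Thalamus-enriched genes were taken from the AL mice, which share no library with the plasma experiment. There, 153 genes had their highest level in thalamus, at least 2 log2 units above the median of the other brain regions. A mean of at least 1 CPM in thalamus was also required. Of the 153, 108 passed the filter in the 6 hypothalamus libraries. Of these 108, 99 had a higher and 9 a lower mean level in YMP, with a median change of 0.57 against -0.01 over all genes tested. An unadjusted p under 0.05 was reached by 55 that were higher (2.57% over all genes) and 1 that was lower, and in 42 the 3 YMP libraries lay above the 3 PBS libraries (4.80% over all genes).

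The summed level of all 153 thalamus-enriched genes, tested or not, was 5181, 6489 and 4157 CPM in YMP 73, 77 and 81. In PBS 72, 80 and 84 it was 3472, 3080 and 4048 CPM. The groups did not overlap, but YMP 81 was close to PBS 84 and YMP 77 was highest. Leaving out PBS 72 left 99 of 108 higher with a median change of 0.57, and leaving out YMP 77 left 91 of 108 higher with a median change of 0.45. With enrichment set to at least 3 log2 units, 42 of 45 genes tested were higher and the median change was 1.07. In bulk tissue, more thalamic cells in a sample and more thalamic RNA per cell cannot be told apart.

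The thalamic markers written down by name showed the same values gene by gene. Tcf7l2, a Wnt-pathway transcription factor of thalamic neurons, measured 227, 325 and 159 CPM in YMP 73, 77 and 81, and 66.5, 55.4 and 117 CPM in PBS 72, 80 and 84. Its change was 1.59 (SE 0.33). Prkcd, a protein kinase C gene with high expression in sensory thalamus, differed by 2.60, and Ntng1, a netrin-family adhesion gene, by 1.53. Of the 10 markers in that list 9 were higher (46.5% of all genes were), 7 with an unadjusted p under 0.05 (2.57% of all genes). The exception was Cplx1, a synaptic vesicle protein gene, which measured 298, 365 and 195 CPM in YMP 73, 77 and 81, and 619, 217 and 290 CPM in PBS 72, 80 and 84. Its change was -0.40, and 0.18 without PBS 72. None of the 10 was at 0 in all 6 libraries. Their summed level overlapped between groups, at 629 to 1381 CPM in YMP and 428 to 837 CPM in PBS, and this overlap rested on Cplx1. Without Cplx1, a choice made after its values were seen, the other 9 summed to 688, 1016 and 434 CPM in YMP 73, 77 and 81, and 217, 211 and 369 CPM in PBS 72, 80 and 84, without overlap.

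The lean towards the thalamus also described the leading genes. Of the 354 genes higher at an unadjusted p under 0.05, 46.3% were at least 1 log2 unit higher in thalamus than in hypothalamus of the AL mice, against 4.79% of all genes tested. Of the 246 lower genes, 24.8% were at least 1 log2 unit lower in thalamus, against 7.56% of all genes. Among the 10 named higher genes 9 leaned to the thalamus by that measure, the exception being Ret. Among the 10 named lower genes 7 were at least 1 log2 unit lower in thalamus. The measure sets thalamus against hypothalamus alone, and 2 of the 10 higher genes were thalamus-enriched. In the AL mice Nxph1, Medag, Lef1 and Phactr2 were highest in thalamus, Cpne9 in pons, and Kcna4, Foxp2, Rgs4 and Syndig1l in caudate putamen. The 7 lower genes were each highest outside hypothalamus, which ranked from 3 (Rab3b) to 12 (Vip, Kcnh1 and Pde2a) of 15 brain regions. Across the 13776 genes, which are not independent replicates, the plasma change correlated with the AL difference between thalamus and hypothalamus at r = 0.376 (Spearman's rho 0.282), and r ranged from 0.155 without PBS 80 to 0.438 without YMP 81.

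**Figure D3:**
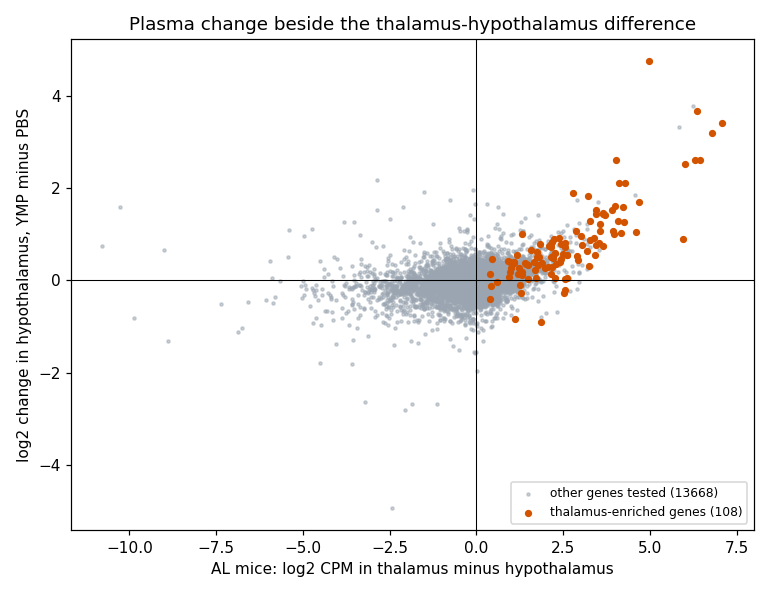
For each gene tested, the log2 level in thalamus minus hypothalamus of AL mice (x axis) and the log2 change in hypothalamus, YMP minus PBS (y axis), with the 108 thalamus-enriched genes in orange. The orange genes lie mostly above 0 on the y axis, 99 of 108.

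The change was largest where the regional difference was large. All 55 genes at least 3 log2 units higher in AL thalamus were higher in YMP (46.5% of all genes were), with a median change of 1.23. An unadjusted p under 0.05 was reached by 37 of them (2.57% of all genes). Among the 12074 genes within 1 log2 unit of equal levels in both regions, 173 were higher and 183 lower at an unadjusted p under 0.05, with a median change of -0.01. The excess of higher over lower genes in the whole comparison, 354 against 246, was thus not seen among genes with similar levels in both regions. Whether the thalamic RNA moved with the treatment or with how the tissue was cut was not tested.

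The same genes were then set against the other brain regions of the same 6 mice. For each mouse, the mean log2 level in 10 other regions that all 6 mice had was subtracted from the level in hypothalamus, and the difference was compared between treatments with limma. At an adjusted p under 0.05 there were 0 genes (0% called), and 859 had an unadjusted p under 0.05 (6.24%), with a smallest adjusted p of 0.165. The 10 regions included the thalamus itself.

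Among the genes with the smallest p-values in that difference were Phactr2, Nxph1, Lef1, Foxp2 and Bhlhe22, a transcription factor gene of the nervous system. The difference holds the same hypothalamus values by which Phactr2, Nxph1, Lef1, Foxp2, Pde2a, Kcnh1 and Penk were named above. It is therefore no separate test of those genes. Phactr2 was higher by 0.43 in hypothalamus and lower by -0.33 in the other regions, a difference of 0.76 (SE 0.08; limma adjusted p 0.165). Lef1 was higher by 1.39 in hypothalamus and lower by -0.40 in the other regions, a difference of 1.78 (SE 0.24). In the opposite direction were Gda, the guanine deaminase gene, with a difference of -0.96 (SE 0.13), and Pde2a, Kcnh1, Trh and Penk. Trh, the thyrotropin-releasing hormone gene, was lower by -0.63 in hypothalamus and higher by 1.13 in the other regions. In hypothalamus its levels overlapped, at 53.4, 135 and 59.4 CPM in YMP 73, 77 and 81. PBS 72, 80 and 84 had 97.9, 135 and 122 CPM. In the AL mice Trh had a median of only 1.02 CPM over the other brain regions, against 131 CPM in hypothalamus. For the 108 thalamus-enriched genes the median change was 0.58 in hypothalamus and -0.17 in the other regions, and the difference was above 0 for 102. Over all 13776 genes the difference was above 0 for 7136.

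Genes of cholesterol synthesis were all higher in the YMP libraries, by a small amount. Neurons and glia make their own cholesterol, and the pathway is controlled by the SREBP2 transcription factor, encoded by Srebf2, which binds sterol regulatory elements in the promoters of its genes. All 22 genes of the list were tested and 22 had a higher mean level in YMP (46.5% of all genes did), 9 with an unadjusted p under 0.05 (2.57% of all genes) and 0 with an adjusted one. The median change was 0.21 against -0.01 over all genes. Their summed level was 2358, 2218 and 2208 CPM in YMP 73, 77 and 81, and 1867, 1960 and 2067 CPM in PBS 72, 80 and 84, so the groups did not overlap.

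At the entry to the pathway, Hmgcs1, which makes HMG-CoA, differed by 0.19, and Acat2, which makes acetoacetyl-CoA, by 0.27. In the mevalonate steps, Pmvk, phosphomevalonate kinase, measured 56.3, 54.9 and 59.5 CPM in YMP 73, 77 and 81, and 43.6, 49.3 and 42.3 CPM in PBS 72, 80 and 84. The change was 0.34 (SE 0.09; edgeR unadjusted p 0.00647, adjusted p 0.987). Mvd, the decarboxylase that follows it, differed by 0.34 and Mvk, which precedes it, by 0.04.

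In the sterol steps, Cyp51, lanosterol 14-demethylase, measured 127, 128 and 141 CPM in YMP 73, 77 and 81, and 105, 111 and 104 CPM in PBS 72, 80 and 84. Its change was 0.30 (SE 0.08), and all YMP libraries were above all PBS libraries. Msmo1, which acts after it, differed by 0.26 and Hsd17b7, a later reductase of the pathway, by 0.37. Insig1, which holds SREBP in the endoplasmic reticulum, differed by 0.36. Srebf2 itself differed by 0.10, and Sc5d, Lss and Mvk were within 0.05 of no change.

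Without PBS 72, 21 of the 22 cholesterol genes were higher and 6 of these had an unadjusted p under 0.05 (4.07% of all genes were higher at that p), with a median of 0.18. The number higher at an unadjusted p under 0.05 was 3 without YMP 73 (1.57% of all genes) and 15 without PBS 84 (4.14% of all genes). In the other regions of the same mice the median change of these genes was 0.02. The difference between hypothalamus and other regions was above 0 for 22 of 22, with an unadjusted p under 0.05 for 7. Over all 13776 genes the difference was above 0 for 7136, 528 of them at that p. In the AL mice 17 of the 22 genes were higher in thalamus than in hypothalamus, with a median of 0.21 log2 units. The part of thalamic RNA in this group of genes was not tested.

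**Figure D4:**
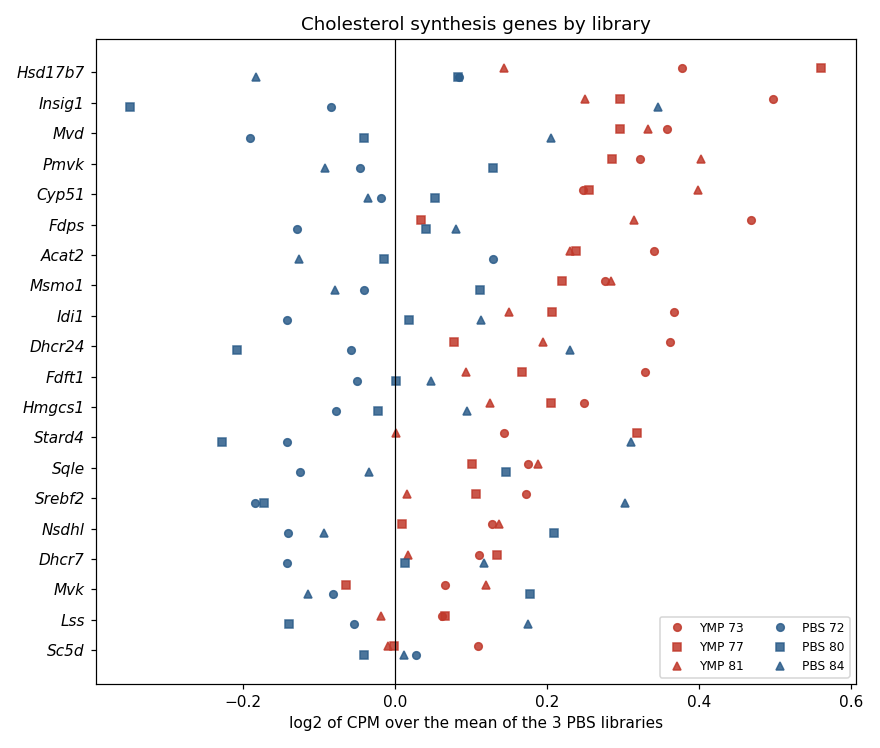
Cholesterol synthesis genes, 20 of the 22 in the list, ordered by their change, each library given as log2 of its CPM over the mean of the 3 PBS libraries, with YMP in red and PBS in blue and 1 symbol per mouse. For Pmvk and Cyp51 the YMP libraries lie to the right of the PBS libraries, while for Mvk, Lss and Sc5d they overlap.

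The promoters of this group were searched for an exact core sequence of the sterol regulatory element. RefSeq promoter windows (GRCm38.p6, 250 bases before to 50 after the start) were available for 15 of the 22 genes, and the core TCACNCCAC was searched on both strands. It was found in 1 of the 15, Hmgcs1, and in 388 of all 27025 genes with a window (1.44%). Only exact matches were counted, and other forms of the element were not searched. A window without these letters may therefore still hold an element. The stretch before the start is shown for Hmgcs1 (chr13:119690101-119690350, plus strand), with the core in capitals, and for Cyp51 (chr5:4104698-4104947, minus strand), the gene of the list with the smallest p, where these letters were not in the window.
Hmgcs1: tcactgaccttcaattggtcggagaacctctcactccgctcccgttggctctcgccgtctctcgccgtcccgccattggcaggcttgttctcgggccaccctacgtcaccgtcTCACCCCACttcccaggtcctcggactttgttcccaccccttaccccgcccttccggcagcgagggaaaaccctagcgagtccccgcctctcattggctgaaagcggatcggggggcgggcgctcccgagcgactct
Cyp51: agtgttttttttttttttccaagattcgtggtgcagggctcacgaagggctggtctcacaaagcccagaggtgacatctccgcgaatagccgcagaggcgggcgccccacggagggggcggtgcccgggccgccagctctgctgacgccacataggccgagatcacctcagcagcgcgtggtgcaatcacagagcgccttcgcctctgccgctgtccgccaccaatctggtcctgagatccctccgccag

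Microglial genes had lower mean levels in YMP. Microglia are the resident immune cells of the brain, and their surveying state is marked by receptors such as Csf1r and Cx3cr1. Csf1r, the receptor for the growth factors that keep microglia alive, measured 81.5, 99.9 and 84.3 CPM in YMP 73, 77 and 81, and 123, 107 and 99.4 CPM in PBS 72, 80 and 84. YMP 77 was just above PBS 84, so the groups overlapped, and the change was -0.31 (SE 0.12). Cx3cr1, the fractalkine receptor, differed by -0.35. Of the 12 genes in the list 11 were lower (53.5% of all genes were), 3 with an unadjusted p under 0.05 (1.79% of all genes) and 0 with an adjusted one, with a median of -0.32. Without PBS 72 all 12 were lower, 0 had an unadjusted p under 0.05 (4.81% of all genes were lower at that p) and the median was -0.23. Without PBS 84 the number lower at that p was 7, where 2.17% of all genes were.

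Genes of activated microglia, complement and interferon gave values in the same direction. In the activated list 13 of 14 genes tested were lower (53.5% of all genes were), with a median of -0.28. Cd68, a lysosomal protein of phagocytes, differed by -0.41, and by -0.24 without PBS 72. In the complement and MHC class I list 11 of 13 were lower, and C4b, a complement component, measured 51.9, 67.5 and 73.5 CPM in YMP 73, 77 and 81, and 85.2, 126 and 91.6 CPM in PBS 72, 80 and 84. C4b did not overlap between groups and its change was -0.65 (SE 0.18; edgeR adjusted p 0.993). Of 17 interferon response genes 16 were lower, with a median of -0.43 and 0 at an unadjusted p under 0.05. Without PBS 72 the interferon median was -0.69 and 8 genes were lower at an unadjusted p under 0.05, where 4.81% of all genes were. The median over the 10 other regions was -0.13 for the surveying microglial list, -0.20 for the activated list, -0.14 for the complement and MHC class I list and -0.07 for the interferon list.

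Astrocyte, myelin and vessel lists had medians near 0 with all 6 libraries. Of 11 astrocyte genes tested 2 were lower at an unadjusted p under 0.05 (1.79% of all genes) and 0 were higher. Gfap, the filament gene of reactive astrocytes, measured 116, 216 and 183 CPM in YMP 73, 77 and 81, and 210, 422 and 242 CPM in PBS 72, 80 and 84, with YMP 77 above PBS 72 and a change of -0.76 (SE 0.31), or -0.39 without PBS 80. Slc1a3, a glutamate transporter gene of astrocytes, measured 670, 869 and 773 CPM in the YMP libraries and 919, 950 and 893 CPM in the PBS libraries, without overlap and with a change of -0.26 (SE 0.11). The median was -0.03 over the 11 astrocyte genes and -0.002 over 15 mature myelin genes, and 8 of 16 genes of endothelium and pericytes were higher and 8 lower. Summed myelin genes ranged from 7968 to 11153 CPM in YMP and from 5839 to 13702 CPM in PBS, so the groups overlapped. Without PBS 72, all 15 myelin genes were higher with a median of 0.36, and 6 had an unadjusted p under 0.05 (4.07% of all genes).

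Immediate early genes, which are switched on within minutes of neuronal activity, had higher mean levels in YMP. Of 18 tested 16 were higher (46.5% of all genes were) with a median of 0.31, and 2 were higher at an unadjusted p under 0.05 (2.57% of all genes). Egr1, a zinc-finger transcription factor gene of this class, measured 78.4, 116 and 93.6 CPM in YMP 73, 77 and 81, and 60.3, 50.8 and 74.2 CPM in PBS 72, 80 and 84. The groups did not overlap, and the change was 0.64 (SE 0.18). Leaving out YMP 77 left 12 of 18 higher with a median of 0.09, and leaving out PBS 72 left 13 of 18 with a median of 0.20. Leaving out YMP 73 gave 5 that were higher at an unadjusted p under 0.05 (1.57% of all genes). In the other regions of the same mice 17 of the 18 genes were higher too, with a median of 0.30.

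Glucocorticoid-responsive genes were mixed. Of 19 tested 11 were higher (46.5% of all genes were) and 8 lower, and 5 had an unadjusted p under 0.05, all higher (2.57% of all genes). Cdkn1a, the p21 cell-cycle inhibitor, measured 16.0, 16.9 and 25.8 CPM in YMP 73, 77 and 81, and 8.14, 10.9 and 8.30 CPM in PBS 72, 80 and 84. Its change was 1.11 (SE 0.23; edgeR adjusted p 0.881), and DESeq2 gave an adjusted p of 0.0241. Sgk1, a kinase induced by corticosteroids, differed by 1.44, Klf9, a Krüppel-like factor, by 0.44 and Tsc22d3, which encodes the leucine zipper GILZ, by 0.35. Fkbp5 and Per1, standard targets of the receptor, differed by -0.05 and -0.03. Without PBS 72, 12 of 19 were higher, 8 of them with an unadjusted p under 0.05 (4.07% of all genes), and the median was 0.16 in place of 0.29. That number was 2 without YMP 77, without YMP 81 or without PBS 80 (1.79%, 2.54% and 2.27% of all genes). Over the other regions of the same mice 14 of the 19 were higher, with a median of 0.19.

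Hormone receptors were mostly lower. Of 15 steroid and pituitary axis receptors 12 were lower (53.5% of all genes were), 3 with an unadjusted p under 0.05 (1.79% of all genes), with a median of -0.17, and their summed level was 605 to 627 CPM in YMP and 669 to 707 CPM in PBS, without overlap. Esr1, the estrogen receptor, measured 13.4, 13.2 and 20.6 CPM in YMP 73, 77 and 81, and 22.2, 24.0 and 25.5 CPM in PBS 72, 80 and 84, a change of -0.60 (SE 0.19). Ghr, the growth hormone receptor, differed by -0.44 and Prlr, the prolactin receptor, by -0.62, or by -0.24 without PBS 72. Without PBS 72, 10 of 15 were lower and 3 had an unadjusted p under 0.05 (4.81% of all genes were lower at that p), and without YMP 73 the number was 0.

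Feeding receptors differed in both directions. Mc4r, the melanocortin receptor through which Pomc products reduce feeding, measured 3.24, 4.40 and 3.56 CPM in YMP 73, 77 and 81, and 10.2, 5.88 and 6.45 CPM in PBS 72, 80 and 84. The groups did not overlap and the change was -1.03 (SE 0.28). Mc4r measured 4.90 CPM in AL hypothalamus and 0.413 CPM in AL thalamus. Ramp3, a partner protein of the amylin receptor, measured 33.3, 39.6 and 14.4 CPM in the YMP libraries and 2.80, 2.40 and 11.5 CPM in the PBS libraries, a change of 2.52 (SE 0.62). Ramp3 was among the thalamus-enriched genes. Lepr, the leptin receptor, differed by 0.60 with an unadjusted p of 0.321, and by 0.11 without PBS 72, and 8 of the 20 receptors tested were higher and 12 lower.

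Transmitter genes showed a similar split. Slc17a6, the vesicular glutamate transporter of thalamic and hypothalamic excitatory neurons, measured 386, 306 and 313 CPM in YMP 73, 77 and 81, and 167, 236 and 234 CPM in PBS 72, 80 and 84, a change of 0.66 (SE 0.16). It too was among the thalamus-enriched genes. Slc32a1, the vesicular transporter of inhibitory neurons, measured 15.0, 18.4 and 13.8 CPM in the YMP libraries and 31.7, 18.3 and 29.2 CPM in the PBS libraries. YMP 77 and PBS 80 overlapped, and the change was -0.75 (SE 0.22). Slc32a1 measured 17.0 CPM in AL hypothalamus and 2.03 CPM in AL thalamus. Gad1, which makes GABA, differed by -0.58, or by -0.28 without PBS 72.

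**Figure D5:**
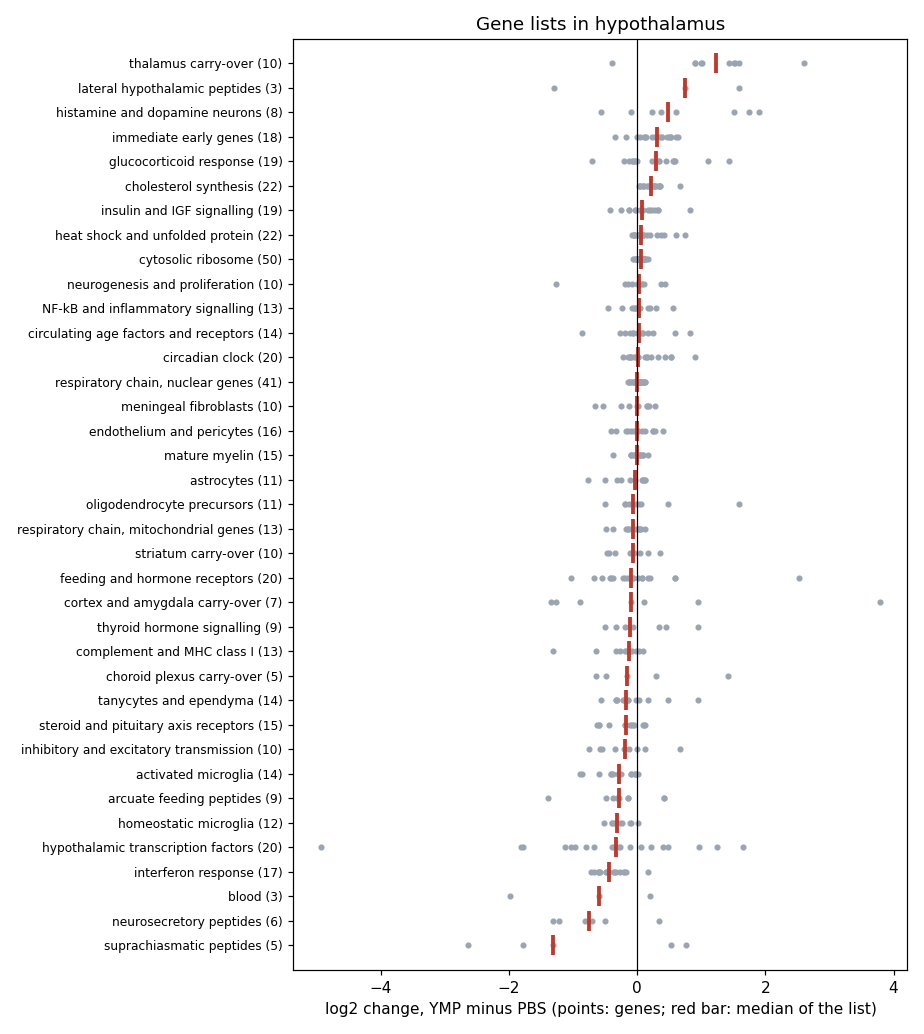
The log2 change, YMP minus PBS, of each gene tested (grey points) in 37 gene lists, with the median of each list as a red bar and the number of genes tested in brackets. The thalamus carry-over list has the highest median, 1.23, and cholesterol synthesis genes lie above 0 without exception.

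Hypothalamus-enriched genes, taken from the AL mice like the thalamic ones, were lower on balance. Of 173 tested 117 were lower (53.5% of all genes were) with a median of -0.15, and 4 were lower at an unadjusted p under 0.05 (1.79% of all genes). All 185 hypothalamus-enriched genes, tested or not, summed to 15346, 15281 and 16428 CPM in YMP 73, 77 and 81. In PBS 72, 80 and 84 the sum was 11650, 18428 and 17567 CPM. PBS 72 was thus the lowest and the other PBS libraries the highest. Without PBS 72, 138 of 173 were lower, 42 of them with an unadjusted p under 0.05 (4.81% of all genes), and the median was -0.32. Without PBS 80, 88 of 173 were lower and the median was -0.01. Whether the treatment or the share of other tissue in each sample set these levels cannot be told apart with 1 sample per mouse.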

How the data were processed

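The deposited table holds counts of reads per gene, whole numbers that the authors made from unstranded Smart-Seq2 libraries. The submitters' processing notes name GRCm38, Trim Galore 0.3.7, STAR 2.5.3a and DESeq2, without roles; the counting program and the annotation are not given in the sources used here. The 6 libraries (6.45 to 23.8 M counts) were filtered with filterByExpr (minimum count 10, minimum total 15), scaled by TMM and tested with edgeR 4.0.16 (quasi-likelihood, Benjamini-Hochberg, adjusted p under 0.05). The 2 treatments were compared within hypothalamus alone. Differences from other regions used limma 3.58.1 on log2 CPM (prior count 2), with the variance trend taken on mean level. DESeq2 1.42.0, other scalings and filters, a fit of all brain libraries and left-out libraries were alternatives. The gene lists and members were chosen with earlier results of these data known. Genes were named by rule: the 10 smallest p per direction at 5 CPM or more without overlap, the 2 smallest p per list with all tested peptides, the 10 most variable at 10 CPM or more, and 5 per direction in the regional difference, leaving out Gm and Rik names. Other genes given with values are members of the lists; 4 list members enter the group counts but are not reported by name here. Region-enriched genes came from AL mice. No pair of libraries was a duplicate (chi-square per degree of freedom 3.67 to 27.4 within groups). Gene positions are from GENCODE M21, promoters from RefSeq GRCm38.p6. Both tests were checked on simulated data. A count of 0 allows up to 3 counts. Intervals of that kind cover counting error only.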

Additional observations from a re-analysis of the deposited data

How the results depend on the processing

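The count of 0 genes called for YMP against PBS in hypothalamus stayed at 0 under RLE and upper quartile scaling, no filter and a stricter filter. It was 33 with DESeq2 and 2 in one fit of all brain libraries. Leaving out 1 library gave 0 to 1 genes called and 312 to 1237 at an unadjusted p under 0.05. No mouse number is shared between treatments, so the comparison itself has no pairs. With the mouse as replicate block across all brain libraries 33 genes were called, 7 of them shared with DESeq2. This fit assumes 1 spread for a gene in all regions, and it called Hcrt, Pmch, Avp and Oxt, whose changes rest on PBS 72 or on YMP 73 and 81.

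For the difference from other regions, where the main test takes differences within each mouse, 5 genes were called with no replicate block and 0 to 4 when 1 mouse was left out, the 4 being without PBS 72. A prior count of 0.5 and leaving out the choroid plexus kept the count at 0. Corpus callosum was not among the 10 regions.

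None of the 20 leading genes changed direction under any alternative run, and DESeq2 called 13 of them. They were chosen from these same libraries for small p-values and no overlap between groups. Their stable direction was therefore largely set by that choice and is a description. Outside that set, 16 of the 104 named genes changed sign in 26 of 1306 values. With 1 library left out, the change ranged from -3.20 to 0.082 for Pomc, -0.80 to 0.20 for Tac2, -0.029 to 0.94 for Cartpt, -0.066 to 1.01 for Ghrh, -0.68 to 0.039 for Sst, -1.74 to 0.52 for Npy, -0.53 to 0.16 for Gal, -2.38 to 0.79 for Agrp and -0.63 to 0.56 for Pdyn. It ranged from -0.12 to 0.68 for Adcyap1, -1.75 to 0.18 for Nts, -0.62 to 0.075 for Opalin, -0.19 to 0.10 for Fa2h and -0.80 to 0.52 for Tmem212. With the mouse as replicate block the sign changed for Agrp (0.15), Pdyn (0.25), Six6 (1.40), Nr5a1 (2.31) and Tmem212 (5.01). The cause was not tested.

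SVZ-enriched genes had no stable direction. Of 186 tested 146 were lower in YMP, 180 without PBS 72 and 41 of 185 without PBS 80. With the mouse as replicate block 26 were lower.

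With 3 mice per group and a median SE of 0.14, 0 genes passed adjustment, and for peptide genes with an SE above 1 no direction can be read. PBS 72, with 23.8 M counts against 6.45 to 8.19 M, has less counting error, which does not lower the spread between mice.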

Other observations

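Several pathways held single genes with low unadjusted p-values but little change as a group. In the circadian clock list 12 of 20 genes were higher (46.5% of all genes were) with a median of 0.01. An unadjusted p under 0.05 was reached by 5, all higher (2.57% of all genes). Without PBS 72 there were 2 higher (4.07% of all genes) and 2 lower (4.81%) at that p. In the AL mice 17 of the 20 were higher in thalamus than in hypothalamus, with a median of 0.62 log2 units. Rora, which was among the 5, was also among the thalamus-enriched genes. It measured 73.9 CPM in AL hypothalamus and 797 CPM in AL thalamus. Nfil3, a repressor of clock output genes, measured 17.6, 16.8 and 19.6 CPM in YMP 73, 77 and 81, and 11.1, 12.8 and 13.7 CPM in PBS 72, 80 and 84, without overlap. The core genes Clock, Cry1 and Per1 differed by 0.01, 0.01 and -0.03. Igf1, the growth factor gene, measured 8.95, 11.6 and 6.67 CPM in the YMP libraries and 5.69, 5.28 and 4.30 CPM in the PBS libraries, a change of 0.82 (SE 0.25; edgeR adjusted p 0.998). Dio2, a deiodinase gene of the tanycyte and ependyma list whose product activates thyroid hormone, measured 5.09, 6.27 and 5.78 CPM against 1.94, 3.00 and 4.30 CPM. Of the 14 genes in that list 10 were lower, with a median of -0.17. In the AL mice hypothalamus ranked 15 of 15 brain regions for Dio2, with 2.62 CPM against 16.2 CPM in thalamus. Igf1 measured 5.76 CPM in AL hypothalamus and 38.8 CPM in AL thalamus.

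In the heat shock and unfolded protein list 17 of 22 genes were higher (46.5% of all genes were). An unadjusted p under 0.05 was reached by 5, all higher (2.57% of all genes). Without YMP 81 only 10 of 22 were higher (48.1% of all genes were) and 0 had an unadjusted p under 0.05. Over the other regions of the same mice 18 of the 22 were higher too, with a median of 0.13. Dnajb1, a chaperone partner of Hsp70, measured 132, 162 and 189 CPM in YMP 73, 77 and 81, and 134, 119 and 107 CPM in PBS 72, 80 and 84. Of 50 cytosolic ribosome genes 44 were higher with a median of 0.05 and 0 at an unadjusted p under 0.05. Nuclear respiratory chain genes had a median of 0.01, or 0.14 without PBS 72, and mitochondrial ones a median of -0.07.

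Of the histamine and dopamine genes, Maob, the monoamine oxidase of glia and histamine neurons, measured 92.7, 113 and 93.9 CPM in YMP 73, 77 and 81, and 56.6, 73.3 and 68.4 CPM in PBS 72, 80 and 84. Its change was 0.60 (SE 0.13; edgeR adjusted p 0.881), and it was among the thalamus-enriched genes. Nr4a2, a transcription factor gene, measured 40.6, 8.93 and 39.4 CPM against 10.3, 5.396 and 7.22 CPM, so YMP 73 and 81 were high and YMP 77 lay within the PBS range.

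None of 8 pituitary genes passed the filter. Before TMM scaling their sum was 2.24 to 5.70 CPM in YMP and 1.98 to 32.3 CPM in PBS, where Cga reached 27.1 CPM in PBS 80. Slc17a7, a vesicular glutamate transporter gene of the cortex and amygdala list, measured 7.10, 16.4 and 1.78 CPM in YMP 73, 77 and 81. In PBS 72, 80 and 84 it measured 0.129, 0 and 2.31 CPM. Of the 7 genes of that list tested 3 were higher and 4 lower, with a median of -0.10. In the AL mice Slc17a7 measured 80.2 CPM in thalamus and 1.45 CPM in hypothalamus. Its source tissue was not tested.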
